A study of Homo sapiens with 10 samples.

Results

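The genes of cholesterol synthesis and of its control by the sterol regulatory element binding proteins (SREBPs) were followed in THP-1 macrophages treated with punicalagin, myricetin or quercetin. The set was a list of 34 genes, ordered along the pathway and chosen by name, with no filter on level. The choice was made with earlier results of these data known. Its counts beside those of all clusters are therefore descriptions and not independent tests. Each gene was represented by the transcript cluster (the group of probes that reads 1 gene on the array) that carries its symbol alone, and by the brightest such cluster where there were several. In this way 32 of the 34 genes were measured, among 21214 clusters with a gene symbol and 33297 clusters in all. HSD17B7 shared its cluster with the pseudogene HSD17B7P2 and is therefore given no value, and FDFT1 was not analysed here. CYP51A1 had a second cluster of its own, in which the group means had the same order as in the first.

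THP-1 is an established human monocytic leukaemia line, and all cells were first turned into macrophages by 24 h with the phorbol ester PMA, in medium with calf serum. They were then kept for 24 h with 10 µM punicalagin (3 arrays, from cell passages 6, 7 and 8), with myricetin (2 arrays, passages 7 and 8), with quercetin (2 arrays, passages 7 and 8) or with the vehicle DMSO (3 arrays, passages 6, 7 and 8). The dose of punicalagin comes from the study's methods. The labels give no dose for myricetin and quercetin, so it is unknown whether the doses were matched. All arrays come from 1 cell line, and the replicates are its passages, so the p-values measure the spread between passages of that line. Punicalagin is a large ellagitannin of the pomegranate, and myricetin and quercetin are flavonols that differ by an additional hydroxyl group on the B ring of myricetin.

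Cells make cholesterol from acetyl-CoA through mevalonate, the isoprenoid diphosphates, squalene and lanosterol, and the last steps turn lanosterol into cholesterol in the membrane of the endoplasmic reticulum (ER). The SREBPs are transcription factors made as membrane proteins of the ER, where SCAP and the INSIG proteins hold them while sterols are plentiful. When ER sterols fall, SCAP carries the SREBPs to the Golgi, proteases release their active part, and this part turns on the genes of the pathway. Macrophages also take up cholesterol from lipoproteins, store it as esters and export it, and the overloaded cell is known as a foam cell of the atherosclerotic plaque.

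The values are log2 intensities, so a difference of 1 is a doubling of the signal, and the level of a gene is compared only with the same gene on other arrays. Differences between groups are differences of mean log2 intensity, given with the standard error of the fit (±). The median intensity of the arrays lay between 5.14 and 5.25 and the arrays correlated at r = 0.962 to 0.992 over all clusters. The macrophage genes CD68, ITGAM, ITGAX, CSF1R, LYZ and SPI1 were above the upper quartile on all 10 arrays, CD14 was above it on 3, and MRC1 lay below the median on all 10. The T cell genes CD3D, CD3E and CD2 and the B cell genes CD79A and MS4A1 lay below the median on all 10 arrays. So did the epithelial genes EPCAM, KRT19 and CDH1, the erythroid gene HBB and the fibroblast gene COL1A2. The erythroid gene ALAS2 lay below the median on 5 arrays, and the fibroblast genes PDGFRA and COL1A1 on 2 and 0. ALAS2, PDGFRA and COL1A1 were above the upper quartile on 0 arrays. The DMSO array of passage 6 stood apart from the other DMSO arrays in inflammatory genes, of which 10 of the 11 listed were higher there, by a median of 1.43, the list having been chosen for this. Of the 32 sterol genes, 9 were higher on it and the median difference was -0.12, with the most negative differences for LPIN1, SREBF1 and LSS. Among the members, PMVK and NPC1L1 lay below the array median on all 10 arrays, MVK on 2 and TMEM97 on 1, and none lay below the lower quartile on any array.

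The promoters of the set are shown because many of its members moved together. Of the 34 genes, 30 had a promoter in the RefSeq table of build GRCh38.p14, and the 250 bases before the start site were searched on both strands, a gene with several starts counting once. The sterol regulatory element of the form TCACNCCAC, a site to which SREBPs are known to bind, occurred in the window of 1 of the 30 genes, SREBF2, and in 1.09% of all 27305 genes. Only this form was searched, so sites with other letters or outside the window would be missed. The CCAAT box of the factor NF-Y, a known partner of the SREBPs, occurred in 21 of the 30 genes (70%) and in 37% of all genes. The GC box GGGCGG, bound by Sp1, occurred in 25 of the 30 (83.3%) and in 46.2% of all genes. The windows printed here are those of SREBF2 (chr22:41832855-41833104, plus strand), which holds the element, of EBP (chrX:48521558-48521807, plus strand) and MSMO1 (chr4:165327419-165327668, plus strand), which rose with punicalagin and hold 3 and 4 CCAAT boxes, of CYP51A1 (chr7:92134478-92134727, minus strand), which rose and holds none, and of MVK (chr12:109573544-109573793, plus strand), which holds 5 and was not called in any comparison. Capitals mark the CCAAT boxes, written ATTGG where they lie on the other strand, and in SREBF2 also the 9-base element.
SREBF2: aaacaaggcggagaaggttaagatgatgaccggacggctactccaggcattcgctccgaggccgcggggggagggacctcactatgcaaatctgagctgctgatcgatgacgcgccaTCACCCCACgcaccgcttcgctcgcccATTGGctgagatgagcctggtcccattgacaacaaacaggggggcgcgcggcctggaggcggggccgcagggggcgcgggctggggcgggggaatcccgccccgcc
EBP: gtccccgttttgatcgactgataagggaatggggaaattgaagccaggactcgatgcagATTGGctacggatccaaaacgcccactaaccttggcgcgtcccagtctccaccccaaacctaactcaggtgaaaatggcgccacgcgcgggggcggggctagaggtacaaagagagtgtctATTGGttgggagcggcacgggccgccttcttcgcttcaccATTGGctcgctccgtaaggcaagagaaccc
MSMO1: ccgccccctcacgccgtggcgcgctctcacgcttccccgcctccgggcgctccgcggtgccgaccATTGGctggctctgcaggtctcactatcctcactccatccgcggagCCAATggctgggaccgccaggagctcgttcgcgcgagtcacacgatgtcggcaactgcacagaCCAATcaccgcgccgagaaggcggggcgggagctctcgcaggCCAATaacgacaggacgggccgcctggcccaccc
CYP51A1: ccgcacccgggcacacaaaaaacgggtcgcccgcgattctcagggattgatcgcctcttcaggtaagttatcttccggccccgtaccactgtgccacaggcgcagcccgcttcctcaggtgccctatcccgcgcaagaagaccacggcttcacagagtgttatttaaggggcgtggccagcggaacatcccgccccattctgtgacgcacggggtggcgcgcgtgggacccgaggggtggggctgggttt
MVK: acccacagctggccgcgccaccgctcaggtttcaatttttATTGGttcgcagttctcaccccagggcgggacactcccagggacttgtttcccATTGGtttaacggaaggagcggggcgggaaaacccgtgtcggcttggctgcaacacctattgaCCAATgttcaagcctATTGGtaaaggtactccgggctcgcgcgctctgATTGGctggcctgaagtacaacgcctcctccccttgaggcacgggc
The element of SREBF2 begins at position -133 from the start site and is followed by the CCAAT box, at -106. Among the members called with punicalagin, 6 of the 8 with a promoter in the table held a CCAAT box, against 15 of the 22 not called. All genes here are those with a RefSeq promoter, whatever their type or their level in these cells. The members were not set beside genes matched to them. A match of letters is a description of the window, and no binding was measured.

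With punicalagin, 9 of the 32 members rose against DMSO and 0 fell, in a limma fit on the 6 arrays with Benjamini-Hochberg adjustment over all 21214 clusters and a threshold of 0.05. Over all clusters tested, 2.13% rose and 0.198% fell. The 9 genes were SQLE, CYP51A1, LBR, MSMO1, EBP, SC5D, DHCR7, SREBF2 and STARD4, and 6 of them belong to the 9 measured genes that lead from lanosterol to cholesterol. The difference was positive for 31 members, LPIN1 being the exception, and for 39.6% of all clusters. Every punicalagin array was above every DMSO array for 21 members, against 8.39% of all clusters. The median difference of the members was 0.65, beside -0.05 for all clusters, and 20 members were higher at an unadjusted p under 0.05, against 7.34% of all clusters. In a fit on all 10 arrays, the form used for the other comparisons, 14 members passed, the 9 with ACAT2, HMGCS1, ERG28, INSIG1 and TMEM97. The share of all clusters called in that fit was not counted. Whether the larger count is particular to the members therefore cannot be told. RNA of whole cultures was measured, so more cells with a transcript and more RNA per cell cannot be told apart.

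**Figure D1:**
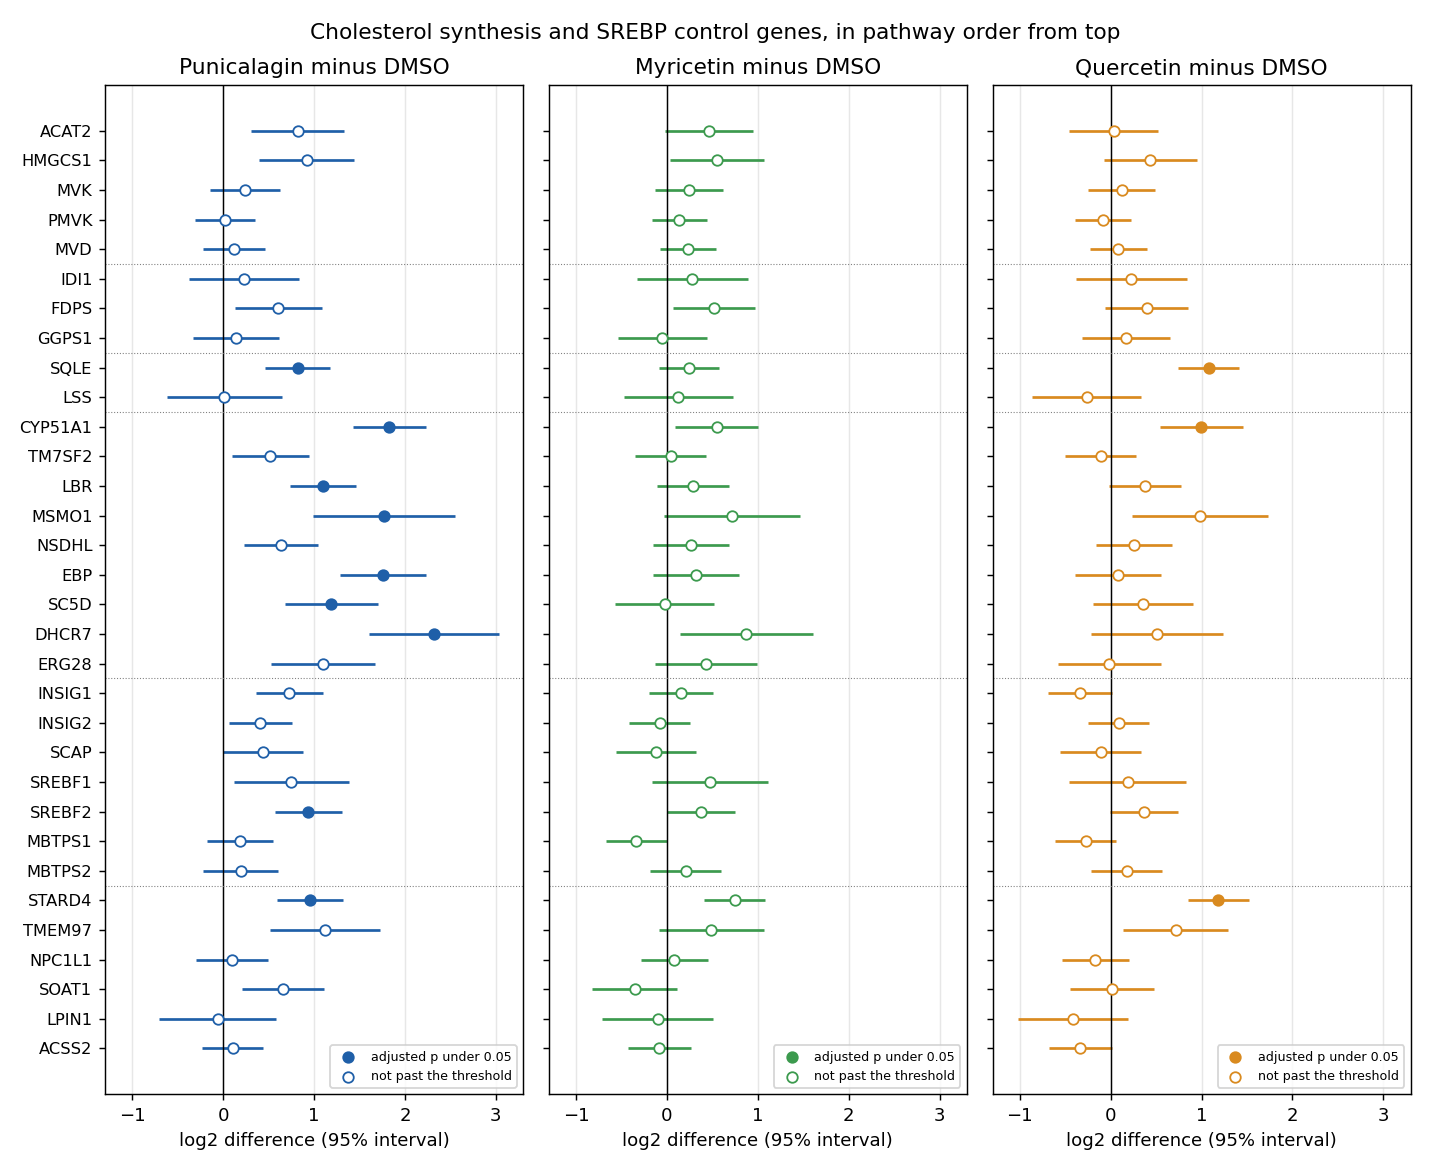
Log2 difference from DMSO of each of the 32 members (rows, in pathway order) for punicalagin, myricetin and quercetin (panels from left to right), with 95% intervals from limma, filled points marking an adjusted p under 0.05. The filled points of the punicalagin panel lie mostly in the block from lanosterol to cholesterol, where the 9 differences run between 0.52 and 2.32, and the quercetin panel has 3 filled points and the myricetin panel none, in fits on all 10 arrays, where the punicalagin panel has 9 on 6 arrays (14 members passed with punicalagin on all 10).

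The genes at the entry of the pathway did not pass the test with punicalagin on the 6 arrays, and ACAT2 and HMGCS1, which had separate groups, passed it in the fits on all 10 arrays. ACAT2, the cytosolic thiolase that joins 2 acetyl-CoA, read 7.00, 7.54 and 6.81 on the punicalagin arrays of passages 6, 7 and 8, 6.69 and 6.83 with myricetin and 6.35 and 6.30 with quercetin in passages 7 and 8, against 6.10, 6.13 and 6.65 on the DMSO arrays of passages 6, 7 and 8. Its punicalagin values lay above all DMSO values, and the difference had an adjusted p over the threshold on the 6 arrays (0.82 ± 0.23, adjusted p = 0.125) and under it on all 10 (adjusted p = 0.0380, or 0.0434 when the fit also held a term for each passage, the replicate block). HMGCS1, which makes HMG-CoA, read 8.41, 8.78 and 8.07 with punicalagin, 8.24 and 7.87 with myricetin and 7.90 and 7.98 with quercetin, against 7.16, 7.50 and 7.85 with DMSO, in the same order of passages. HMGCS1 was above every DMSO array on all 7 arrays with a compound, and the punicalagin difference was 0.92 ± 0.23, adjusted p = 0.0892 on the 6 arrays, with an adjusted p of 0.0292 on all 10 and of 0.0275 when these carried the replicate block. The kinases MVK (0.24, adjusted p = 0.671) and PMVK (0.02, adjusted p = 0.981) and the decarboxylase MVD (0.12, adjusted p = 0.834), which carry mevalonate to isopentenyl diphosphate, had overlapping groups. The 5 genes together had a median difference of 0.24.

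The isoprenoid steps held no called gene with punicalagin on the 6 arrays. FDPS, which makes farnesyl diphosphate, was above DMSO on every punicalagin array (7.74, 7.89 and 7.91 against 6.76, 7.41 and 7.55) with a difference of 0.61 ± 0.21, adjusted p = 0.248 on the 6 arrays, and it passed only in the fit on all 10 arrays with the replicate block (adjusted p = 0.0393). The lowest of these DMSO values was that of passage 6. The isomerase IDI1 (0.23 ± 0.27, adjusted p = 0.817) and GGPS1, which makes geranylgeranyl diphosphate (0.14 ± 0.21, adjusted p = 0.864), overlapped between the groups.

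From squalene to lanosterol, 1 of the 2 measured enzymes passed the test. SQLE, the squalene epoxidase and a rate-limiting step of the sterol branch, read 11.52, 11.65 and 11.26 with punicalagin, 10.95 and 10.85 with myricetin and 11.69 and 11.78 with quercetin, against 10.51, 10.66 and 10.80 with DMSO. Its lowest punicalagin value, that of passage 8, was still above the highest DMSO value, which came from the same passage. SQLE rose with punicalagin by 0.82 ± 0.16 on the log2 scale, 1.77-fold, adjusted p = 0.0334. LSS, the cyclase that makes lanosterol in the next step, read 6.38, 6.36 and 6.83 with punicalagin, 6.61 and 6.66 with myricetin and 6.27 and 6.22 with quercetin, against 5.86, 6.69 and 6.99 with DMSO. The DMSO values of LSS spanned more than those of any treated group, and the punicalagin values lay among them (0.01 ± 0.28, adjusted p = 0.993). Without the DMSO array of passage 6, the lowest of the 10, the difference of LSS was -0.31.

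The steps from lanosterol to cholesterol held most of the genes called with punicalagin: all 9 measured genes were above DMSO on every array, 6 passed the test, 7 differed by at least 2-fold, and the median difference was 1.19. CYP51A1, the demethylase that acts first on lanosterol, read 9.90, 10.04 and 9.59 with punicalagin, 8.76 and 8.37 with myricetin and 8.78 and 9.26 with quercetin, against 8.00, 7.80 and 8.25 with DMSO. The punicalagin arrays stood more than 1 log2 unit above every DMSO array, and both flavonol groups lay between them and DMSO. CYP51A1 rose with punicalagin by 1.83 ± 0.18 on the log2 scale, 3.54-fold, adjusted p = 0.00200. Its second cluster read 8.62, 8.77 and 8.15 with punicalagin, 7.77 and 7.42 with myricetin and 7.67 and 8.37 with quercetin, against 7.02, 6.87 and 7.22 with DMSO. The group means had the same order, but in this cluster the quercetin array of passage 8 was above the punicalagin array of that passage.

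The next reduction can be done by LBR, which is also a receptor for lamin B in the inner nuclear membrane, or by TM7SF2. LBR read 9.35, 9.37 and 9.39 with punicalagin, 8.65 and 8.46 with myricetin and 8.41 and 8.88 with quercetin, against 8.20, 8.05 and 8.55 with DMSO. The punicalagin values of LBR were the most even of its groups, and LBR rose by 1.10 ± 0.16 on the log2 scale, 2.15-fold, adjusted p = 0.0111. TM7SF2 had separate groups as well, with 6.50, 6.72 and 6.12 for punicalagin against 5.75, 5.93 and 6.11 for DMSO. Its difference was less than that of LBR in size and missed the threshold (0.52 ± 0.19, adjusted p = 0.267).

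MSMO1, NSDHL and ERG28 act at the removal of the methyl groups of carbon 4, MSMO1 as the oxidase, NSDHL as the dehydrogenase and ERG28, by its role in yeast, as the protein that holds the enzymes together. MSMO1 read 9.50, 9.48 and 8.33 with punicalagin, 7.97 and 8.12 with myricetin and 8.23 and 8.39 with quercetin, against 7.82, 6.85 and 7.31 with DMSO. All 7 arrays with a compound were above the 3 DMSO arrays, and with punicalagin MSMO1 rose by 1.77 ± 0.34 on the log2 scale, 3.41-fold, adjusted p = 0.0342. ERG28 read 9.21, 9.28 and 8.36 with punicalagin, 8.32 and 8.25 with myricetin and 7.65 and 8.02 with quercetin, against 7.96, 7.57 and 8.02 with DMSO. Its punicalagin value of passage 8 was close to the myricetin values, and the difference from DMSO missed the threshold (1.10 ± 0.25 on the log2 scale, 2.14-fold, adjusted p = 0.0670). Without that array ERG28 passed, with a difference of 1.39 and an adjusted p of 0.0108. NSDHL differed by 0.64 ± 0.18, adjusted p = 0.133, with 7.25, 7.68 and 7.05 for punicalagin against 6.68, 6.65 and 6.74 for DMSO.

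EBP, SC5D and DHCR7 form the end of the route. EBP, the sterol isomerase, read 8.89, 9.12 and 8.30 with punicalagin, 7.41 and 7.25 with myricetin and 6.92 and 7.26 with quercetin, against 7.09, 7.04 and 6.89 with DMSO. The 3 punicalagin arrays stood apart from the 7 others, and EBP rose by 1.76 ± 0.21 on the log2 scale, 3.39-fold, adjusted p = 0.00446. SC5D, the desaturase that follows, read 8.25, 8.32 and 7.48 with punicalagin, 6.99 and 6.61 with myricetin and 6.94 and 7.42 with quercetin, against 6.76, 6.73 and 6.99 with DMSO. The punicalagin array of passage 8 lay near the quercetin array of that passage, and SC5D rose by 1.19 ± 0.23 on the log2 scale, 2.28-fold, adjusted p = 0.0323 over the 3 passages. DHCR7, which reduces 7-dehydrocholesterol to cholesterol, read 8.93, 9.41 and 8.13 with punicalagin, 7.39 and 7.36 with myricetin and 6.68 and 7.34 with quercetin, against 6.39, 6.20 and 6.91 with DMSO. It had the largest difference of the 32 members, 2.32 ± 0.31 on the log2 scale, 4.99-fold, adjusted p = 0.00757, with a 95% interval of 3.05 to 8.17-fold.

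**Figure D2:**
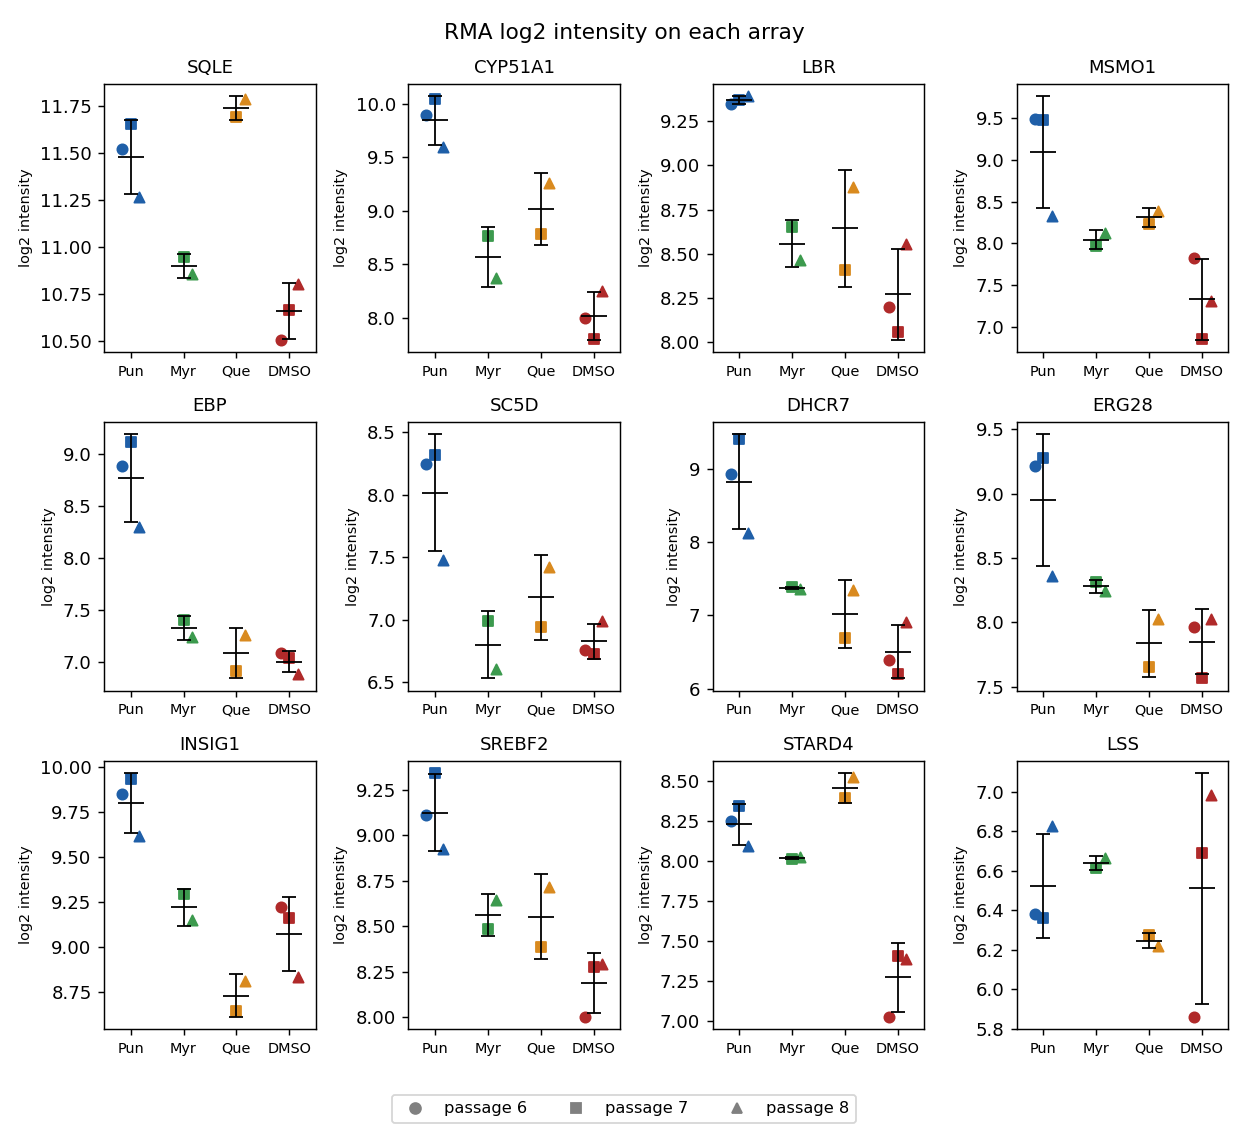
Log2 intensity of 12 members on each of the 10 arrays, grouped as punicalagin, myricetin, quercetin and DMSO from left to right, in which the symbol gives the passage (6 a circle, 7 a square, 8 a triangle) and the bar the mean with its SD. For CYP51A1, EBP and DHCR7 the 3 punicalagin points lie above all others, for SQLE and STARD4 the quercetin points are the highest, and for LSS the groups overlap.

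Of the 7 genes that control the SREBPs, SREBF2 passed the test with punicalagin and 5 had separate groups. SREBF2, which encodes the SREBP that mainly drives cholesterol genes and is itself a target of it, read 9.11, 9.34 and 8.92 with punicalagin, 8.48 and 8.64 with myricetin and 8.39 and 8.72 with quercetin, against 8.00, 8.28 and 8.29 with DMSO. All arrays with a compound lay above those with DMSO, and with punicalagin SREBF2 rose by 0.94 ± 0.16 on the log2 scale, 1.91-fold, adjusted p = 0.0219. SREBF1, which encodes the SREBPs that favour fatty acid genes, read 6.60, 7.20 and 6.78 with punicalagin, 6.47 and 6.71 with myricetin and 6.06 and 6.53 with quercetin, against 5.46, 6.39 and 6.48 with DMSO. The DMSO array of passage 6 was about 1 log2 unit below the other DMSO arrays, and the difference of SREBF1 did not pass on the 6 arrays (0.75 ± 0.28, adjusted p = 0.299) but did in the fit on all 10 with the replicate block (adjusted p = 0.0466). INSIG1, the sterol-regulated holder of SCAP, read 9.85, 9.93 and 9.62 with punicalagin, 9.30 and 9.15 with myricetin and 8.65 and 8.82 with quercetin, against 9.22, 9.16 and 8.84 with DMSO. It was highest with punicalagin and lowest with quercetin, and its punicalagin difference of 0.73 ± 0.16 missed the threshold (adjusted p = 0.0602) but passed it in the fit with the passage as a replicate block (adjusted p = 0.0415). INSIG2, its paralogue, read 6.45, 6.63 and 6.36 with punicalagin, 6.11 and 5.88 with myricetin and 6.11 and 6.21 with quercetin, against 6.01, 5.93 and 6.27 with DMSO. The punicalagin values of INSIG2 were the highest, and the difference from DMSO did not pass (0.41 ± 0.15, adjusted p = 0.302). SCAP had separate groups (0.44 ± 0.19, adjusted p = 0.409), and the proteases of the Golgi, MBTPS1 (0.18 ± 0.16, adjusted p = 0.75) and MBTPS2 (0.19 ± 0.18, adjusted p = 0.767), did not.

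Among the 6 carriers and other targets, 1 passed the test with punicalagin. STARD4, a soluble carrier that moves sterols between membranes, read 8.25, 8.34 and 8.09 with punicalagin, 8.01 and 8.02 with myricetin and 8.39 and 8.52 with quercetin, against 7.02, 7.40 and 7.39 with DMSO. No array with a compound fell within the DMSO values, and with punicalagin STARD4 rose by 0.96 ± 0.16 on the log2 scale, 1.94-fold, adjusted p = 0.0192. TMEM97, an ER protein that binds the lysosomal cholesterol transporter NPC1, was at 6.85, 7.12 and 6.29 with punicalagin against 5.70, 5.16 and 6.03 with DMSO. Its fold was larger than that of STARD4 in size but its spread was wider, and it did not pass (1.12 ± 0.27, adjusted p = 0.0770). SOAT1, which makes cholesteryl esters, had separate groups (7.36, 7.79 and 7.02 with punicalagin against 6.71, 6.64 and 6.85 with DMSO) and did not pass either (0.66 ± 0.20, adjusted p = 0.167). NPC1L1, the intestinal sterol transporter (0.10, adjusted p = 0.891), the acetyl-CoA synthetase ACSS2 (0.10, adjusted p = 0.859) and the phosphatidate phosphatase LPIN1 (-0.06, adjusted p = 0.963) overlapped between the groups.

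CYP51A1 and EBP passed the test whichever of the 6 arrays was left out, and DHCR7 missed it in the fit without the punicalagin array of passage 6 (adjusted p = 0.0552). LBR, SREBF2 and STARD4 missed it without the punicalagin array of passage 6 (0.0661, 0.113 and 0.105), that of passage 7 (0.0743, 0.110 and 0.108) or the DMSO array of passage 7 (0.0577, 0.0821 and 0.0634), and SQLE, MSMO1 and SC5D missed it without each of these (0.131 to 0.192) and without the DMSO array of passage 8 (0.0588, 0.0852 and 0.0563). INSIG1 passed without the DMSO array of passage 6 (adjusted p = 0.0420), and TMEM97 without the punicalagin array of passage 8 (adjusted p = 0.0360).

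The passage is the batch that the labels give, and the size of the punicalagin difference varied with it. Within passages 6, 7 and 8 the median difference of the 32 members was 0.71, 0.89 and 0.24. The median of all clusters was -0.06, -0.04 and -0.04. Of the members, 29, 29 and 25 were positive. Passage 8 gave the smallest of the 3 differences for 24 members, among them all 9 that passed the test. DHCR7, for example, differed by 2.53, 3.21 and 1.22 in passages 6, 7 and 8, and MSMO1 by 1.67, 2.62 and 1.02. INSIG1 was unlike these, with 0.63, 0.77 and 0.78. A positive difference in every passage was found for 22 members. The share of all clusters that were positive within each passage, or in every passage, was not counted. The smaller difference in passage 8 came from both sides: after each gene was centred on its mean over the arrays, the median of the members was 0.14 on the punicalagin array of passage 8, beside 0.32 and 0.64 in passages 6 and 7, and -0.12 on the DMSO array of passage 8, beside -0.35 and -0.28. With 1 pair of arrays in each passage, whether the passages differ was not tested.

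**Figure D3:**
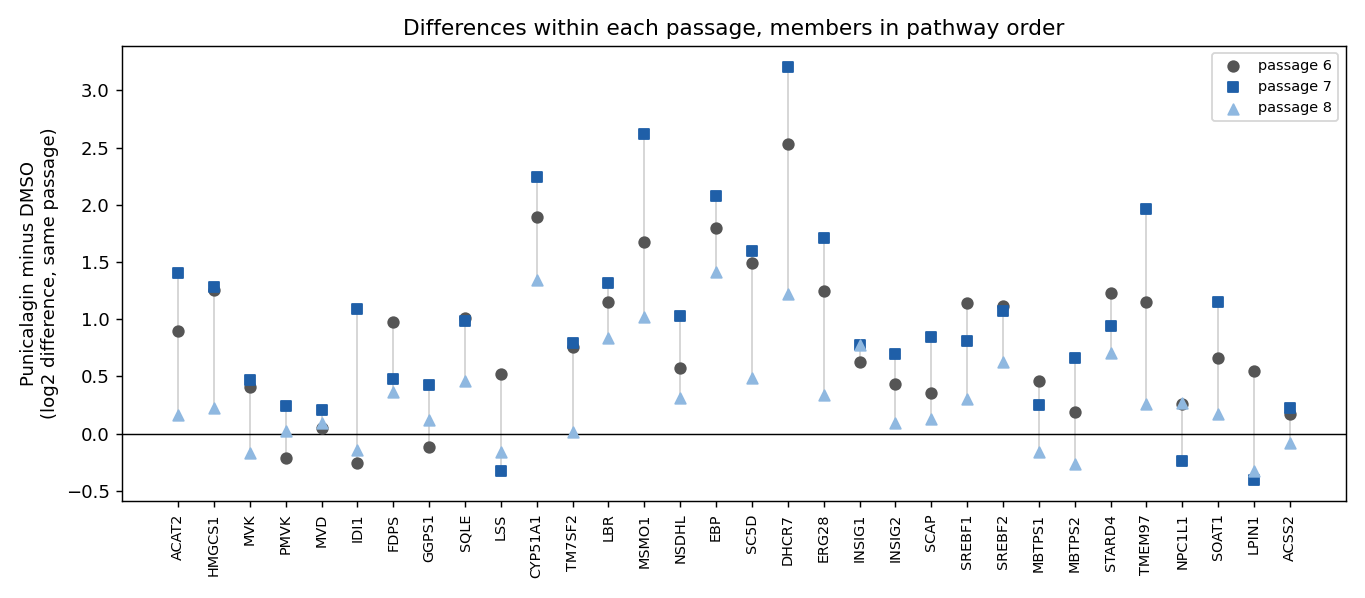
Difference in log2 intensity between the punicalagin and the DMSO array of the same passage, for each of the 32 members in pathway order, with a point for each of passages 6, 7 and 8. The points of passage 8 lie nearest to 0 for most of the genes from lanosterol to cholesterol, as for DHCR7 with 1.22 beside 2.53 and 3.21.

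Myricetin did not move any member past the threshold against DMSO in the limma fit on all 10 arrays, in which 0.438% of all clusters rose and 0.0707% fell. The differences of 24 members were positive (50.5% of all clusters), the median was 0.24 beside 0.0025 for all clusters, and 5 members were higher at an unadjusted p under 0.05, against 5.12% of all clusters. Both myricetin arrays were above every DMSO array for 15 members, against 13.3% of all clusters, and below every one for 2, MBTPS1 and SOAT1, against 10.4%. STARD4 came nearest to the threshold (0.75 ± 0.15 on the log2 scale, 1.68-fold, adjusted p = 0.0692). DHCR7 (0.87 ± 0.33, adjusted p = 0.451), MSMO1 (0.72 ± 0.34, adjusted p = 0.606), HMGCS1 (0.55 ± 0.23, adjusted p = 0.531) and CYP51A1 (0.55 ± 0.21, adjusted p = 0.446) had separate groups too. Within passages 7 and 8 the median difference of the members was 0.26 and 0.08, so most of the shift lay in passage 7, where CYP51A1 differed by 0.96, beside 0.12 in passage 8.

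With quercetin, 3 of the 32 members rose against DMSO and 0 fell, while 2.80% of all clusters rose and 1.13% fell. STARD4 rose by 1.18 ± 0.15 on the log2 scale, 2.27-fold, adjusted p = 0.00114. SQLE rose by 1.08 ± 0.15 on the log2 scale, 2.11-fold, adjusted p = 0.00194. CYP51A1 rose by 1.00 ± 0.21 on the log2 scale, 1.999-fold, adjusted p = 0.0202. These 3 genes come from different stages, a carrier, the squalene epoxidase and the first step after lanosterol, and other enzymes of these stages overlapped with DMSO, such as EBP (0.08 ± 0.22, adjusted p = 0.930), ERG28 (-0.01 ± 0.26, adjusted p = 0.992) and LSS (-0.26 ± 0.27, adjusted p = 0.760). MSMO1 was separate from DMSO without passing (0.98 ± 0.34, adjusted p = 0.172). Both quercetin arrays lay above every DMSO array for 9 members, against 14.6% of all clusters, and below for 4, INSIG1 (-0.34 ± 0.16, adjusted p = 0.356), MBTPS1, NPC1L1 and ACSS2, against 17.2%. The differences of 22 members and of 43.1% of all clusters were positive, with a median of 0.14 beside -0.04 for all clusters, and the medians within passages 7 and 8 were 0.11 and 0.12. SQLE and STARD4 passed whichever array was left out, and CYP51A1 missed the threshold without the quercetin array of passage 8 (adjusted p = 0.310) or the DMSO array of passage 7 (adjusted p = 0.0651).

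The compounds were also set against each other, in 3 comparisons fitted on all 10 arrays. Between punicalagin and myricetin, 2 members were higher with punicalagin, EBP (1.44 ± 0.22 on the log2 scale, 2.71-fold, adjusted p = 0.0239) and CYP51A1 (1.28 ± 0.21 on the log2 scale, 2.42-fold, adjusted p = 0.0272), against 0.519% of all clusters. In the fit with the passage as a replicate block, CYP51A1 no longer passed (adjusted p = 0.0530). CYP51A1 also missed the threshold on the passages that both compounds share and with the mean of its 2 clusters. Neither EBP nor CYP51A1 passed when all clusters were tested. Of 19 alternatives, those with an array left out included, CYP51A1 passed in 11 and EBP in 14. The 3 punicalagin arrays were above both myricetin arrays for 17 members, against 11.1% of all clusters, and the median difference was 0.42. All 9 genes from lanosterol to cholesterol were higher with punicalagin in the mean, DHCR7 by 1.45 ± 0.33, adjusted p = 0.0875 and SC5D by 1.22 ± 0.25, adjusted p = 0.0611, and in the mevalonate steps the median difference was -0.01. Both calls were lost without either myricetin array, with adjusted p between 0.166 and 0.554, and without the punicalagin array of passage 6 or 7, with adjusted p between 0.114 and 0.123.

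Between punicalagin and quercetin, 5 members were higher with punicalagin and 2.06% of all clusters were. They were EBP (1.68 ± 0.22 on the log2 scale, 3.21-fold, adjusted p = 0.00224), INSIG1 (1.07 ± 0.16, adjusted p = 0.00520), DHCR7 (1.81 ± 0.33, adjusted p = 0.0125), ERG28 (1.11 ± 0.26, adjusted p = 0.0355) and LBR (0.73 ± 0.18, adjusted p = 0.0498). ERG28 missed the threshold in the fit with the replicate block (adjusted p = 0.0683). Every punicalagin array was above both quercetin arrays for 20 members, against 16.8% of all clusters, and below both for 2, SQLE (-0.26 ± 0.15, adjusted p = 0.467) and STARD4 (-0.23 ± 0.15, adjusted p = 0.545), against 19.3%. For these 2 genes the 95% interval of the difference was -0.59 to 0.08 and -0.56 to 0.11. In passage 7 the 2 compounds were nearly level in SQLE and STARD4 (-0.04 and -0.05), and in passage 8 quercetin was the higher (-0.52 and -0.43). Without the quercetin array of passage 7 all 5 calls were lost, with an adjusted p of 0.0676 for EBP, 0.120 for INSIG1, 0.223 for DHCR7, 0.408 for ERG28 and 0.578 for LBR. LBR was also lost without each other punicalagin, myricetin or quercetin array (0.0767 to 0.121), and ERG28 without each of these (0.0659 to 0.126) but the punicalagin array of passage 8.

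Between the flavonols, 1 member passed the test: SQLE was lower with myricetin than with quercetin, by a difference of -0.84 ± 0.17 (95% interval -1.20 to -0.47, adjusted p = 0.0314), among the 1.16% of all clusters that were. The call was lost without each of the 4 flavonol arrays, with adjusted p between 0.187 and 0.265, and without the punicalagin array of passage 6 (0.0514). STARD4 (-0.44 ± 0.17, adjusted p = 0.271, 95% interval -0.81 to -0.07) and CYP51A1 (-0.45 ± 0.23, adjusted p = 0.452, 95% interval -0.95 to 0.05) were also lower on both myricetin arrays, and INSIG1 was higher on both (0.49 ± 0.18, adjusted p = 0.229, 95% interval 0.11 to 0.88). The other members differed by -0.38 (SC5D) to 0.44 (ERG28) between the flavonols, and the widest 95% interval, that of MSMO1, ran from -1.09 to 0.55. With 2 arrays each and unknown doses, these differences compare the treatments as they were given.

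Other genes around the pathway were counted in the punicalagin comparison from lists named for their function. Of all clusters tested there, 2.13% rose, 0.198% fell and 39.6% had a positive difference, with a median of -0.05. The lists were chosen with earlier results of these data known, so their counts are descriptions. Of 10 measured genes of ER control of sterol synthesis, 1 rose: ERLIN2, a protein of ER membrane domains, with 8.60, 8.84 and 8.17 on the punicalagin arrays, 7.56 and 7.43 with myricetin and 7.14 and 7.53 with quercetin, against 7.21, 7.15 and 7.26 with DMSO (1.33 ± 0.18, adjusted p = 0.00828). Of 7 helper proteins and paralogues, 1 rose: POR, the reductase that passes electrons to CYP51A1 and SQLE, with 8.31, 8.58 and 7.89 on the punicalagin arrays, 7.13 and 7.22 with myricetin and 7.40 and 7.71 with quercetin, against 7.35, 7.08 and 7.13 with DMSO (1.07 ± 0.19, adjusted p = 0.0245). Both genes showed the order of the 3 passages seen in EBP and DHCR7, with passage 7 the highest and passage 8 the lowest of the punicalagin arrays. Of 11 genes that use isoprenoids for prenylation, dolichol or ubiquinone, none passed, and the largest differences were 0.51 for the protease RCE1 and 0.35 for PDSS1, which makes the tail of ubiquinone. The medians of these 3 lists were 0.32, 0.19 and 0.12.

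Among 12 genes of sterol movement and esters, 1 rose and 1 fell with punicalagin, and the median was 0.01. Of all clusters, 2.13% rose and 0.198% fell, with a median of -0.05. LIPA, the lysosomal lipase that frees cholesterol from lipoprotein esters, read 10.12, 10.20 and 9.36 with punicalagin, 8.52 and 8.28 with myricetin and 8.84 and 9.17 with quercetin, against 8.11, 7.62 and 7.59 with DMSO. It was higher on all 7 arrays with a compound, and it rose with punicalagin (2.12 ± 0.25, adjusted p = 0.00390) and with quercetin (1.23 ± 0.25, adjusted p = 0.0191). GRAMD1C, a sterol transfer protein of the ER, was the gene that fell (adjusted p = 0.0194). It read 3.65, 3.42 and 3.67 with punicalagin against 4.31, 4.56 and 4.73 with DMSO, and since the lower quartile of the punicalagin arrays was 3.72, 3.55 and 3.66, its signal there was not shown to be above background and no fold is given. Of the 10 fatty acid genes known as targets of SREBP1, 2 rose with punicalagin and the median was 0.53: the desaturases FADS2, with 8.31, 8.19 and 7.95 against 5.11, 5.25 and 6.48 on the DMSO arrays (2.54 ± 0.33, adjusted p = 0.00604), and SCD, with 9.68, 9.70 and 8.60 against 7.53, 6.84 and 7.86 (1.92 ± 0.34, adjusted p = 0.0238). SCD read 8.24 and 8.35 with myricetin and 8.30 and 8.91 with quercetin, above every DMSO array. FADS2 read 7.18 and 6.97 with myricetin, also above every DMSO array, and 6.42 and 6.72 with quercetin. None of these flavonol differences passed the test. With punicalagin the differences of 8 of the 10 were positive, beside 39.6% of all clusters, and 0 fell past the threshold. ME1 went the other way, with 6.75, 7.21 and 6.44 on the punicalagin arrays against 7.71, 7.79 and 7.62 with DMSO. In the fit without the DMSO array of passage 6, which stood apart in inflammatory genes, 10 of the 32 sterol genes passed with punicalagin against DMSO. The share of all clusters that passed in that fit was not counted.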

How the data were processed

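RNA of THP-1 macrophages was hybridised to 10 Human Gene 1.0 ST arrays of Affymetrix. The authors deposited 1 log2 intensity per transcript cluster and array, made by RMA, which corrects the background, equalises the quantiles of the arrays and summarises the probes. Partek Genomics Suite 7.0 is named for this step in the methods, and the submitters' processing notes also list the Affymetrix Expression Console. The genome build, and whether the 10 arrays were processed in a single run, are not given in the sources used here. RMA compresses large differences, and the number of arrays limits the precision.

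Of 33297 clusters, the probe table gives 1 gene symbol to 19460, several to 1754 and none to 12083, and the 21214 with a symbol were tested without a filter. The fits used limma 3.58.1 (lmFit, eBayes; R 4.3.3), and p-values were adjusted over these clusters by Benjamini-Hochberg, with 0.05 as the threshold. The comparison of punicalagin and DMSO rested on their 6 arrays, and the others on all 10 arrays with a shared spread. The scripts were tested on simulated data. The passage pairs the arrays by the number of the culture in the labels. The deviations of the punicalagin and DMSO arrays from their group means correlated at 0.36, -0.10 and 0.32 in passages 6, 7 and 8. Between passages these correlations ran from -0.44 to 0.33, the highest for DMSO of passage 7 with punicalagin of passage 8. For DMSO and a flavonol of the same passage they lay between -0.11 and 0.03. In a group of 2 arrays the deviations mirror each other, so the flavonol values cannot show a pairing. In the groups of 3 the deviations cancel out within the group, which ties matched to unmatched values. These correlations therefore cannot decide whether the passages are paired. The passage as a replicate block, other filters, arrays left out and further alternatives were tried. Promoters came from RefSeq, GRCh38.p14. Each of the 34 genes was to be named, with array values for those past the threshold and for 11 key genes. The members and lists were chosen with earlier results of these data known.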

Additional observations from a re-analysis of the deposited data

How the results depend on the processing

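Against the 9 members past the threshold with punicalagin, 14 passed when all 10 arrays were fitted and 16 when these were fitted with the passage as a replicate block. The count was 10 with the replicate block on the 6 arrays (INSIG1 gained), 4 when all clusters were tested, 12 with array weights, and 0 by a plain analysis of variance of the 2 groups, the test that the methods name, after Benjamini-Hochberg adjustment (8 by that test unadjusted with a 2-fold change). With 1 array left out it lay between 2 (without the punicalagin array of passage 6) and 11 (without that of passage 8), being 3 without the punicalagin array of passage 7, 10, 3 and 6 without the DMSO arrays of passages 6, 7 and 8. For myricetin against DMSO the count of 0 became 1 with array weights, and it was 0 with any array left out. For quercetin against DMSO the count of 3 became 5 on the arrays of passages 7 and 8 and 6 with array weights, and lay between 2 and 5 with 1 array left out. For punicalagin against myricetin the count of 2 became 1 with the replicate block, 1 on passages 7 and 8, 7 with array weights, 4 among clusters above the median intensity, 0 among all clusters and 1 with the mean of a gene's clusters, and lay between 0 and 7 with 1 array left out. For punicalagin against quercetin the count of 5 was 4 with the replicate block, 3 on passages 7 and 8, 12 with array weights and 3 among all clusters, and lay between 0 and 10 with 1 array left out. For myricetin against quercetin the count of 1 became 0 with trend and robust spread, 3 with array weights and 0 among all clusters, and lay between 0 and 1 with 1 array left out. On the arrays on which each comparison was fitted, the replicate block changed the calls of INSIG1 (punicalagin against DMSO), CYP51A1 (punicalagin against myricetin) and ERG28 (punicalagin against quercetin) and no other, and on all 10 arrays it added FDPS and SREBF1 for punicalagin against DMSO. Each of these settings changes the samples, the clusters or the estimate of the spread, and the cause of each shift was not tested. The share of all clusters called was counted for the main fits only. A higher count of members under an alternative therefore cannot be told from a fit that calls more clusters in general. Directions reversed only in members near 0 with punicalagin: LSS was -0.21 with array weights, -0.0047 with quantile normalization added and between -0.31 and 0.25 with 1 array left out, and with 1 array left out PMVK lay between -0.075 and 0.0776, IDI1 between -0.0383 and 0.48, LPIN1 between -0.43 and 0.14, GGPS1 between -0.0063 and 0.31 and NPC1L1 between -0.0301 and 0.26. Of all values recomputed under the alternatives, 778 were rated as kept, 112 lost and 36 gained a call or moved their count, and 13 reversed. For a gene, kept means the same direction and the same side of the threshold. For a count or a median it means a value near the main one. Genes that were not called and stayed so are among those kept, so the total does not measure how stable the calls were. The 2 or 3 arrays in each group and the unknown flavonol doses limit these comparisons, and a difference that missed the threshold was not shown to be absent.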
